A study of Mus musculus with 8 samples.

Results

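The genes described here are the components of bone morphogenetic protein (BMP) and transforming growth factor beta (TGF-beta) signalling that the array names: the *Bmp*, *Gdf*, *Inh* and *Tgfb* ligands, the *Ltbp* latency proteins, the *Bmpr*, *Acvr* and *Tgfbr* receptors with the decoy *Bambi*, secreted antagonists such as *Nog*, *Chrd*, *Fst*, *Grem1* and *Bmper*, the Smad proteins and the *Id* target genes. They were selected by gene name, which gave 64 genes with 87 probes out of 36406 gene or transcript names with 55681 probes, and each gene is described by its brightest probe. The cells were E14Tg2A.4 mouse embryonic stem (ES) cells, an established line kept in an undifferentiated state by culture. Total RNA of 4 untreated cultures and of 4 cultures given 1 µM all-trans retinoic acid (RA) for 72 h was labelled with Cy3 and hybridized to Agilent arrays of 1 colour, with 1 sample per array. RA, a vitamin A derivative that drives ES cells out of self-renewal, was given in medium without leukemia inhibitory factor, so that the effects of RA and of the missing factor cannot be told apart, and both groups are of a single parental line. The labels number the samples of each group 1 to 4, and the study's methods call them biological replicates.

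Ligands of this family are secreted dimers that bring together type I and type II receptor kinases on the cell surface. Most BMPs and some growth differentiation factors (GDFs), such as GDF5 and GDF6, lead to phosphorylation of Smad1, Smad5 and Smad9, whereas TGF-beta, activin, Nodal and other GDFs, such as GDF1, GDF3 and GDF11, lead to phosphorylation of Smad2 and Smad3, and both branches share Smad4. Smad6 and Smad7 feed back on the receptors, and antagonists such as noggin bind the ligands outside the cell. In mouse ES cells BMP4 is known to act with leukemia inhibitory factor to hold self-renewal through the *Id* genes, and *Gdf3* and *Nodal* are genes of the undifferentiated cell.

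Values are log2 intensities relative to the 75th percentile of their own array, so that 0 is that percentile. They are compared only within a probe, except that the signals of marker lists are also summed. A member was called higher or lower when its adjusted p from limma was under 0.05 and its change exceeded 1.5-fold. Between 33629 and 37175 of the 59305 spots that are not controls were well above background per array, no spot was saturated, and no array was left out. Each of the 2 slides held 2 arrays of each group, untreated 1 and 3 with RA 1 and 4 on one slide and the others on the other. Of the 64 members, 49 were well above background on all 8 arrays. *Bmp3*, *Bmp5*, *Gdf6* and *Smad9* were so in none of the untreated samples and *Bmp10*, *Bmp15* and *Inhbc* in none of the RA-treated ones, and for these a change, where given, is a bound against the dimmest signal that is well above background. *Bmp2*, *Gdf7* and *Inhba* were among 4 members well above background on some arrays of a group only, and *Gdf2*, *Gdf10*, *Acvr1c* and *Bambi* on none.

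Markers of other cell types moved with the treatment as well. All 9 pluripotency genes examined fell. *Pou5f1* fell by 5.54 and *Nanog* fell by 4.55 on the log2 scale, while all 9 were well above background on the untreated arrays, and all 7 RA response genes rose. All 11 primitive endoderm genes rose as well, 8 of 9 fibroblast and smooth muscle genes rose with *Acta2* at 9.19, and all 4 trophoblast genes measured rose. The log2 of the summed fibroblast and smooth muscle signal ranged from 1.83 to 2.46 on the untreated and from 8.14 to 8.98 on the RA-treated arrays, and *Postn* was below background in untreated cells. That of the primitive endoderm genes ranged from 3.24 to 4.63 and from 6.22 to 6.66, with *Ttr* below background in untreated cells. For the trophoblast genes it ranged from 3.24 to 4.27 and from 8.75 to 9.13, with *Elf5* below background in untreated cells, and this list includes *Krt8* and *Krt18*, keratins that other simple epithelia also express. Of 9 neural genes 3 rose and 2 fell (sums from 2.75 to 3.47 and from 4.17 to 4.72), and of 8 mesoderm genes 2 rose and 2 were called lower, of which *Mixl1* was below background on every array (sums from 1.22 to 1.48 and from 1.27 to 2.23). In a bulk RNA sample more cells of a type and more RNA per cell cannot be told apart, and the part of these cell types in the results that follow was not tested.

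RA treatment raised 35 of the 64 members (54.7%) and lowered 13 (20.3%). Over the brightest probe of every gene on the array, 13.9% were called higher and 22.1% lower (36.1% either way), and over all probes 12.9% and 21.6%. The median change of the members was 0.95 on the log2 scale, against -0.28 over all probes. Among the 49 members above background on all 8 arrays, 29 (59.2%) rose and 10 (20.4%) fell, beside 18.1% and 27.5% (45.6% either way) of the 20388 genes of the array that met the same condition. In 35 members every RA-treated array lay above every untreated array, and in 11 every one lay below, against 15.3% and 25.3% of all genes. Within each slide taken alone all 48 called members changed in the same direction as over both slides, although with fewer arrays only 24 of the 35 were called higher on slide 1 and 25 on slide 2. These shares describe a list that was chosen with results of these data known. Quantile normalization moved the median of all probes to -0.0026 and that of the members to 1.05, and the members' median was 0.61 after background correction by normexp, 0.78 when quantile normalization followed it and 0.77 in the authors' values.

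The counts of each role follow, beside the 13.9% higher and 22.1% lower of all genes, and roles were not tested against each other. Among the Smads 7 of 8 rose and none fell, and among the antagonists 4 of 6 rose and none fell. Of the BMP ligands 6 of 10 rose and 3 fell. Of the GDFs 2 of 10 rose (20%) and 3 fell (30%), shares not far from those of all genes. All 5 activin and inhibin subunits changed, 2 higher and 3 lower. Of the 7 TGF-beta ligands and latency proteins 4 rose and 2 fell, and of the 4 *Id* genes 3 rose and 1 fell. The type I receptors had 3 of 7 higher and 1 lower, and the type II and type III receptors with *Bambi* 3 of 6 higher and none lower. *Bmp1*, a procollagen C-proteinase that is no ligand in spite of its name, read -1.69, -0.43, -0.46 and -1.05 on untreated arrays 1 to 4 and 2.97, 3.16, 2.80 and 2.79 on RA-treated arrays 1 to 4. The groups lay far apart, and it rose by 3.84 ± 0.28 (SE) on the log2 scale (adjusted p = 1.87e-05). A further *Bmp1* probe rose by 3.13, whereas its other one was at 0.54 and was not called.

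**Figure D1:**
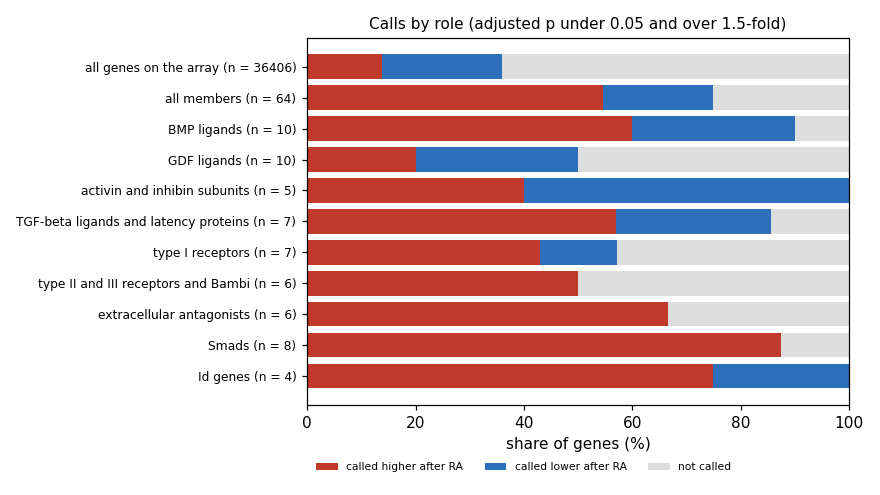
Share of genes, in percent, called higher (red), lower (blue) or not called (grey) after RA treatment, for all genes on the array, for the 64 members and for each role, with the number of genes in each row. Red takes 54.7% of the members against 13.9% of all genes, and 87.5% of the 8 Smads; *Bmp1* counts among the members only.

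*Bmp2*, a ligand of bone, heart and endoderm development, rose more than any other member. Its probe, at chr2:133388260-133388319 on mm9, read -5.11, -4.34, -6.35 and -5.12 on untreated arrays 1 to 4 and 2.31, 2.21, 1.74 and 1.91 on RA-treated arrays 1 to 4. The groups did not overlap, and untreated array 3 was the lowest. The difference was 7.27 ± 0.38 on the log2 scale (adjusted p = 4.26e-06). Only 1 untreated array was well above background, and with the normexp background correction the difference came to 5.23, still called.

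*Bmp4*, the ligand tied to ES cell self-renewal, was bright in both groups and did not pass the test. It read 4.08, 3.32, 3.13 and 3.59 in untreated cells and 4.54, 4.62, 3.23 and 3.66 after RA. The groups overlapped, with RA-treated arrays 3 and 4 inside the untreated range. The difference was 0.48 (95% confidence interval -0.31 to 1.28, adjusted p = 0.274), so that a rise of over 2-fold and a small fall both remain within the interval.

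*Bmp5* and *Bmp3* were dim in untreated cells. *Bmp5*, a ligand of skeletal development, read -7.48, -7.87, -7.93 and -7.43 without and -3.20, -4.47, -4.46 and -3.96 with RA, a rise of at least 2.66-fold (adjusted p = 2.85e-05). For *Bmp3*, an atypical member that restrains bone formation, the values were -6.16, -7.74, -7.12 and -7.32 without and -3.98, -4.78, -3.80 and -3.84 with RA. Neither gene had overlapping groups. The bound for *Bmp3* was at least 2.53-fold higher (adjusted p = 0.000228), and its call was lost with the normexp correction, where the log2 difference was 0.56. *Bmp6*, a ligand known for iron control in the liver, rose by 1.72 ± 0.20 (adjusted p = 0.000212), or by 0.88 with normexp, still called.

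The paralogs *Bmp8a* and *Bmp8b*, neighbours on chromosome 4 and best known in germ cells, went opposite ways, though sequence shared between them makes their probes uncertain. *Bmp8b* read -2.34, -1.12, -1.44 and -1.93 in untreated cells and 0.63, 0.61, -0.70 and -0.67 after RA, a rise of 1.68 ± 0.40 (adjusted p = 0.01) that was not called within either slide alone. *Bmp8a* read -0.38, 0.06, -0.98 and -0.73 against -1.36, -0.73, -1.53 and -1.88, so that the groups overlapped. It fell by 0.87 on the log2 scale (adjusted p = 0.0482, or 0.012 with the replicate number as a block). The call, but not the direction, was lost with quantile normalization (-0.83) and without any of 6 single arrays (-0.94 to -0.68).

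*Bmp7*, a ligand of kidney and eye development, was at the edge of the call. Untreated arrays read 1.24, 0.62, 1.12 and 1.04 and RA-treated arrays 1.35, 1.40, 1.71 and 2.23, with RA-treated array 4 the highest. It rose by 0.67 ± 0.23 (adjusted p = 0.0499). The call was lost with the replicate number as a block (adjusted p = 0.0587) and without any single array but RA-treated array 1, while the difference stayed between 0.48 and 0.76 without those 7 arrays. *Bmp10* and *Bmp15*, ligands of the heart and of the oocyte, were at the limit of detection. *Bmp15* read -5.95, -6.47, -4.67 and -6.24 without and -7.89, -7.69, -7.96 and -7.94 with RA. *Bmp10* read -5.09, -6.03, -5.25 and -5.56 without and -7.92, -7.73, -6.03 and -7.97 with RA, where RA-treated array 3 reached the untreated range. Each was well above background on 2 or fewer untreated arrays, so that no bound is given for either. *Bmp10* was called lower (adjusted p = 0.00768) and so was *Bmp15* (adjusted p = 0.00197), and both calls were lost with either normexp setting and in the authors' values.

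**Figure D2:**
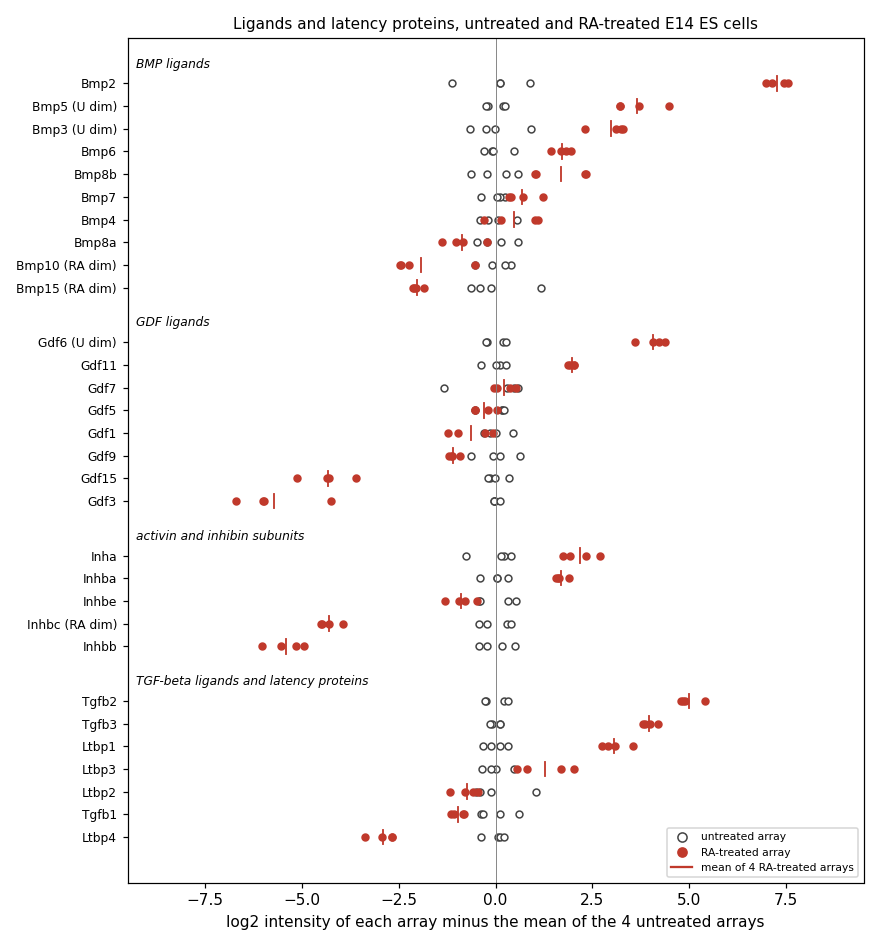
Log2 intensity of each array minus the mean of the 4 untreated arrays of the same gene, for the ligands and latency proteins grouped by role, with open circles for untreated arrays, red circles for RA-treated arrays and a red bar for the mean of the 4 RA-treated arrays. "U dim" and "RA dim" mark genes that were dim on every untreated or on every RA-treated array, and the GDFs below background on all arrays are left out. Of the genes above background on all 8 arrays, *Tgfb2*, *Tgfb3* and *Ltbp1* lie farthest to the right and *Gdf3*, *Inhbb* and *Gdf15* farthest to the left, and the places of dim genes are not exact.

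Among the GDFs above background on all 8 arrays the largest change was that of *Gdf3*, a ligand of the Nodal type that marks undifferentiated ES cells. Its probe at chr6:122556340-122556399 on mm9 read 5.86, 5.82, 5.81 and 5.98 on the untreated arrays and -0.13, 1.60, -0.11 and -0.83 on the RA-treated arrays. The untreated arrays lay close together (SD 0.08, n = 4), while the RA-treated arrays spread (SD 1.04, n = 4) with array 2 the highest. *Gdf3* fell by 5.73 on the log2 scale (SE 0.45, adjusted p = 2.41e-05), which is 53.2-fold lower, and a second probe fell by 5.05.

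*Gdf15*, a stress-induced cytokine, read 2.57, 2.07, 2.01 and 2.21 in untreated cells and -2.90, -2.08, -1.38 and -2.14 after RA. It fell by 4.34 (SE 0.30, adjusted p = 1.39e-05), 20.3-fold, with a wide gap between the groups. *Gdf9*, an oocyte factor, read -1.04, -1.74, -2.31 and -1.56 without and -2.88, -2.58, -2.78 and -2.79 with RA. Every RA-treated array was below every untreated array, and the fall of 1.09 was called (adjusted p = 0.00829) over both slides but within neither slide alone.

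*Gdf6* and *Gdf11*, which pattern the skeleton and the body axis, rose. *Gdf6* read -7.10, -7.52, -7.56 and -7.02 in untreated cells, all below background, and -2.94, -3.69, -3.23 and -3.08 after RA, a rise of at least 4.60-fold (adjusted p = 4.26e-06). *Gdf11* read -4.32, -4.82, -4.15 and -4.43 against -2.40, -2.50, -2.55 and -2.41, a rise of 1.96 ± 0.17 (adjusted p = 3.76e-05) with tight RA-treated values, or of 1.11 with normexp, still called. *Gdf1*, whose transcript is shared with *Cers1* so that a probe may not separate them, differed by -0.64 (95% confidence interval -1.29 to 0.02, adjusted p = 0.116). A second *Gdf1* probe, well above background on 3 of 4 RA-treated arrays, was called lower at -0.59, and so was the mean of its probes at -0.61. *Gdf5*, a joint factor, was at -0.30 (adjusted p = 0.287) and *Gdf7*, a spinal cord roof plate factor, at 0.22 (adjusted p = 0.668), neither called.

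The inhibin beta subunits, which dimerize into activins or pair with the alpha subunit to form inhibins, split by gene. *Inhbb*, the beta B subunit at chr1:121312160-121312219 on mm9, read 2.10, 1.77, 1.39 and 1.19 in untreated cells and -3.92, -3.32, -3.53 and -4.43 after RA. It fell by 5.42 (SE 0.29, adjusted p = 4.52e-06), 42.7-fold, with no overlap, and by 4.41 with normexp. *Inhba*, the beta A subunit, went the other way, from -5.65, -5.21, -4.91 and -5.21 to -3.68, -3.62, -3.35 and -3.60. Its rise of 1.68 ± 0.18 (adjusted p = 0.000133) started from a level that was well above background on 2 of 4 untreated arrays, and with normexp it was 0.56 and no longer called.

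*Inha*, the alpha subunit that turns activins into inhibins, read -3.25, -3.41, -4.40 and -3.49 without and -1.73, -1.89, -1.31 and -0.95 with RA. The groups were apart, and the rise was 2.17 ± 0.30 (adjusted p = 0.000533), or 1.48 with normexp. *Inhbc* and *Inhbe*, liver-type subunits whose probes lie side by side on chromosome 10 (126793865 to 126793924 and 126786719 to 126786778 on mm9), were both lower after RA. *Inhbc* read -3.20, -3.72, -3.93 and -3.10 against -7.98, -7.80, -7.43 and -8.00, at least 4.97-fold lower (adjusted p = 4.56e-06). *Inhbe* read -2.15, -2.89, -2.86 and -1.95 against -3.76, -3.42, -2.95 and -3.25. Its groups nearly touched, and it fell by 0.88 (adjusted p = 0.0312). The call, but not the direction, was lost with quantile normalization (-0.72), with normexp followed by quantile normalization (-0.49), in the authors' values (-0.48), with the replicate block (adjusted p = 0.0571) and without any of 5 single arrays (-0.92 to -0.71).

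The sequence before the start of *Inhbb* is shown to give the context of a gene of this family that is on in untreated ES cells. Among the subunits above background on all 8 arrays it had the largest fall. It is the 250 bases before the RefSeq start on GRCm38.p6, chr1:119422249-119422498 on the minus strand, with none of the words GGCGCC or TATAAA and 68.0% G and C.
Inhbb: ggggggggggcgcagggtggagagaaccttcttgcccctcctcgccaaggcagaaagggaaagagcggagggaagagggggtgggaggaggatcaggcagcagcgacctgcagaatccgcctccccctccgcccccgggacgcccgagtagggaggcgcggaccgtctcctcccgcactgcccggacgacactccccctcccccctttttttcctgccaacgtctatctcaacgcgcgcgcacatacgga

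*Tgfb2* and *Tgfb3* rose and *Tgfb1* fell. All 3 genes encode TGF-beta ligands that signal through *Tgfbr2* and *Tgfbr1*, and *Tgfb2* also depends on the co-receptor betaglycan, encoded by *Tgfbr3*. *Tgfb2*, at chr1:188449333-188449392 on mm9, read -1.74, -1.28, -1.16 and -1.76 in untreated cells and 3.93, 3.41, 3.30 and 3.35 after RA, with the groups far apart. The rise was 4.98 ± 0.21 (adjusted p = 2.08e-06), 31.6-fold, and a second probe gave 5.27. *Tgfb3* read -3.73, -3.73, -3.95 and -3.99 against -0.04, 0.01, 0.14 and 0.34, and both groups were tight (SD 0.14 and 0.17, n = 4 each). Its rise of 3.96 ± 0.15 (adjusted p = 1.41e-06) had the smallest adjusted p of the members, and it was 2.95 with normexp.

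*Tgfb1*, the ligand best known from immune cells and fibrosis, read -2.05, -1.06, -2.01 and -1.55 in untreated cells and -2.52, -2.49, -2.82 and -2.74 after RA. It fell by 0.97 (SE 0.23, adjusted p = 0.0101), with every RA-treated array below every untreated array. On slide 1 alone the fall was 0.60 and was not called, and on slide 2 it was 1.35.

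The latent TGF-beta binding proteins, several of which tether the latent ligand to the matrix, did not move together. *Ltbp1* read -2.05, -2.28, -2.51 and -1.86 in untreated cells and 0.72, 0.58, 0.91 and 1.36 after RA, a rise of 3.06 ± 0.22 (adjusted p = 1.54e-05). *Ltbp4* went down from 5.88, 5.94, 5.45 and 6.04 to 2.46, 2.90, 3.15 and 3.14. The fall was 2.92 (SE 0.21, adjusted p = 1.57e-05) and its further probes fell by 2.90 and 1.66. *Ltbp3* read -1.68, -1.32, -1.45 and -0.84 against -0.52, -0.77, 0.36 and 0.70. It rose by 1.26 ± 0.34 (adjusted p = 0.0184), a call lost without untreated array 1 (adjusted p = 0.0523) or RA-treated array 3 (adjusted p = 0.0506), and RA-treated arrays 3 and 4 were the high ones. A second *Ltbp3* probe was at 0.73 (adjusted p = 0.0796) and was not called. *Ltbp2* was at -0.75 (adjusted p = 0.12) and was not called.

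The TGF-beta receptors were higher after RA at their brightest probes, where *Tgfbr1* rose least. *Tgfbr2*, the ligand-binding type II receptor at chr9:115997155-115997214 on mm9, read -2.94, -2.04, -2.03 and -2.30 without and 1.68, 1.23, 1.10 and 1.29 with RA. *Tgfbr3* read -2.26, -2.81, -1.47 and -2.61 against 2.22, 1.55, 1.89 and 1.94. For both genes all RA-treated arrays stood far above the untreated ones. *Tgfbr2* rose by 3.65 ± 0.24 (adjusted p = 1.04e-05), 12.6-fold, though a dimmer probe for it was at 0.74 and not called. *Tgfbr3* rose by 4.19 ± 0.30 (adjusted p = 1.49e-05), 18.2-fold.

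*Tgfbr1*, the type I kinase that these receptors recruit, read 1.42, 1.37, 1.46 and 1.36 in untreated cells and 1.95, 1.72, 2.14 and 2.33 after RA. The untreated arrays were nearly equal (SD 0.05, n = 4), and none of them reached the RA-treated range. The rise of 0.63 ± 0.16 (adjusted p = 0.0131) stayed just over 1.5-fold and fell below that fold without RA-treated array 4, and a second probe rose by 1.09.

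The promoters of *Tgfb2* and *Tgfbr2* are shown as those of a ligand and its receptor that rose together. Each is the 250 bases before the RefSeq start on GRCm38.p6, *Tgfb2* at chr1:186705990-186706239 and *Tgfbr2* at chr9:116175364-116175613, both on the minus strand. Capitals mark the word TATAAA, which stands near the start in *Tgfb2* and was not found in *Tgfbr2*. The word was in 13.3% of the 45 members that had a promoter entry and in 13.0% of all 27025 promoters.
Tgfb2: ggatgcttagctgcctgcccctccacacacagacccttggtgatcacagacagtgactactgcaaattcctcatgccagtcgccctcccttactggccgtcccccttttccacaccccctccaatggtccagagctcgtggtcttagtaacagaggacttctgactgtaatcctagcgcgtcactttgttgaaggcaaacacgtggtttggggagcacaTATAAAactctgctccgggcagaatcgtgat
Tgfbr2: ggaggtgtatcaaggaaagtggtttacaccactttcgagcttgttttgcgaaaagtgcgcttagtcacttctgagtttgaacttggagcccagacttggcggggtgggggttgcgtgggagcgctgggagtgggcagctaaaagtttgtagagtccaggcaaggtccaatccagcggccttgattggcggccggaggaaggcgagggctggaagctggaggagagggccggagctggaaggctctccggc

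The BMP receptors *Bmpr1a*, *Bmpr1b* and *Bmpr2* rose. *Bmpr1a*, a main BMP2 and BMP4 receptor in the early embryo, read 1.25, 1.48, 0.86 and 1.31 in untreated cells and 2.73, 2.75, 2.84 and 2.95 after RA. *Bmpr1b*, its counterpart in cartilage, read -3.87, -3.64, -3.01 and -3.27 against -2.43, -2.35, -1.50 and -1.10. Neither gene overlapped between groups, although *Bmpr1b* was more spread after RA. The rise was 1.59 ± 0.17 for *Bmpr1a* (adjusted p = 0.000103) and 1.60 ± 0.33 for *Bmpr1b* (adjusted p = 0.00495), the latter 1.00 with normexp. A second *Bmpr1b* probe gave 1.87.

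*Bmpr2*, the type II partner, read -1.37, -0.14, -1.38 and -1.64 in untreated cells and 0.26, 0.48, 0.09 and 0.10 after RA. Untreated array 2 was close to the RA-treated range but below it, and the rise was 1.37 ± 0.31 (adjusted p = 0.00792). *Acvrl1*, a type I receptor of endothelium, read -3.20, -2.61, -2.57 and -3.37 against -3.42, -4.11, -3.42 and -3.999. It fell by 0.80 (adjusted p = 0.0358), the only receptor among the members that was called lower. The call, but not the direction, was lost with quantile normalization (-0.59), with normexp followed by quantile normalization (-0.41), in the authors' values (-0.41) and without any of 4 single arrays (-0.72 to -0.68).

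None of the activin receptors passed the test. *Acvr2b*, a type II receptor for activin and Nodal, differed by 0.21 (95% confidence interval -0.25 to 0.67, adjusted p = 0.406) and *Acvr2a*, its close relative, by 0.14 (-0.24 to 0.52, adjusted p = 0.507). For both the intervals leave no room for a 2-fold change. *Acvr1b*, the activin type I receptor, was at -0.30 (adjusted p = 0.208). *Acvr1*, a BMP type I receptor, was at 0.61 (0.10 to 1.12, adjusted p = 0.0618), not called here but called, in the same direction, with quantile normalization, both normexp settings, the authors' values, the filter on dim probes and the mean of its probes, and its second probe was called higher at 0.62 (adjusted p = 0.0394).

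**Figure D3:**
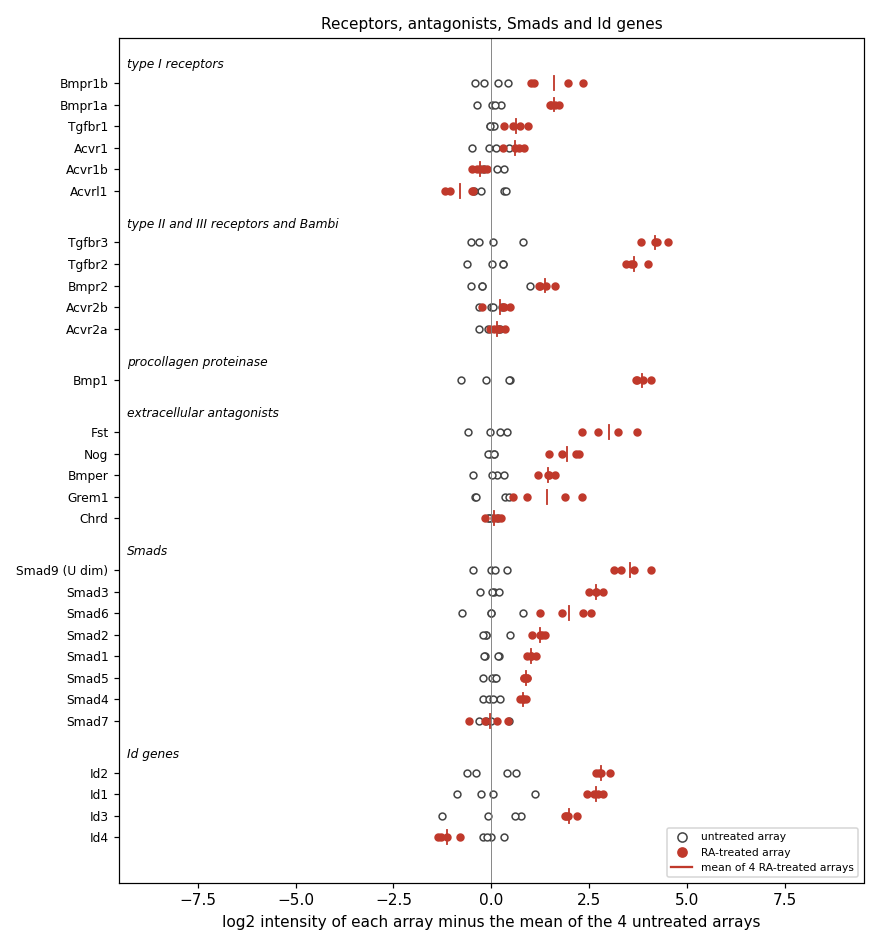
Log2 intensity of each array minus the mean of the 4 untreated arrays of the same gene, for receptors, *Bmp1*, antagonists, Smads and *Id* genes, with open circles for untreated arrays, red circles for RA-treated arrays and a red bar for the mean of the 4 RA-treated arrays. "U dim" marks *Smad9*, dim on every untreated array, and *Acvr1c* and *Bambi*, below background on all arrays, and 1 antagonist are left out. Of the genes above background on all 8 arrays, *Tgfbr3*, *Bmp1* and *Tgfbr2* lie farthest to the right, and *Id4* and *Acvrl1* are the genes called lower.

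Antagonists of BMP and activin were among the genes that rose. *Fst*, encoding follistatin, which binds activins, read -0.82, -0.37, -1.38 and -0.56 in untreated cells and 2.46, 2.94, 1.53 and 1.95 after RA. *Nog*, encoding noggin, which blocks BMP2 and BMP4, read -2.82, -2.92, -2.97 and -2.82 against -0.63, -0.73, -1.41 and -1.08. The groups stood apart in both genes, with *Nog* nearly constant in untreated cells. *Fst* rose by 3.00 ± 0.33 (adjusted p = 0.000155) and *Nog* by 1.92 ± 0.19 (adjusted p = 8.09e-05).

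*Bmper*, a BMP-binding protein of vessels, read -2.26, -2.08, -2.39 and -2.88 without and -1.20, -0.96, -0.78 and -0.94 with RA, and rose by 1.43 ± 0.20 (adjusted p = 0.000506). *Grem1*, a BMP antagonist of limb and kidney, read -4.37, -5.14, -5.11 and -4.28 against -4.16, -3.81, -2.42 and -2.85. RA-treated arrays 3 and 4 were high and array 1 lay next to the untreated range. It rose by 1.41 ± 0.40 (adjusted p = 0.0229), and the call was lost with normexp (0.58) and without any of 4 single arrays (1.12 to 1.29). *Chrd*, encoding the BMP antagonist chordin, was at 0.07 (95% confidence interval -0.26 to 0.40, adjusted p = 0.723).

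The Smads of both branches rose. *Smad3*, which carries TGF-beta and activin signals, read 0.75, 0.71, 0.87 and 0.41 in untreated cells and 3.35, 3.18, 3.35 and 3.53 after RA. *Smad2*, its partner, read 0.46, 0.48, 1.08 and 0.40 against 1.97, 1.63, 1.91 and 1.85. In both the groups were apart, with untreated array 3 the high one for *Smad2*. *Smad3* rose by 2.67 ± 0.15 (adjusted p = 6.23e-06), 6.36-fold, with a second probe at 0.81 that was also called, and *Smad2* rose by 1.24 ± 0.19 (adjusted p = 0.000855).

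Of the BMP-branch Smads, *Smad1* read -2.09, -2.12, -1.74 and -1.77 without and -0.91, -1.02, -0.91 and -0.79 with RA. *Smad5* read 2.66, 2.58, 2.70 and 2.37 against 3.49, 3.49, 3.43 and 3.42. *Smad9*, dim in untreated cells, read -6.88, -6.77, -6.44 and -7.32 against -3.55, -3.73, -2.79 and -3.21. None of these genes overlapped between groups, and the RA-treated arrays of *Smad5* were almost identical. The rise was 1.02 ± 0.15 for *Smad1* (adjusted p = 0.000701) and 0.88 ± 0.13 for *Smad5* (adjusted p = 0.000871), and *Smad9* was at least 4.34-fold higher (adjusted p = 1.71e-05).

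*Smad4*, the Smad common to both branches, read 3.72, 3.30, 3.45 and 3.55 in untreated cells and 4.30, 4.25, 4.32 and 4.38 after RA. The rise of 0.81 ± 0.14 (adjusted p = 0.00178) was modest and tight, and a second probe at 0.54 was not called. *Smad4*, *Smad1* and *Smad5* were called within neither slide alone, and *Smad2* was not called within slide 1. The inhibitory Smads parted. *Smad6*, which restrains BMP signals, read -1.73, -0.91, -2.46 and -1.73 against 0.09, -0.48, 0.84 and 0.64 and rose by 1.98 ± 0.38 (adjusted p = 0.00312). It was not called within slide 2 alone. *Smad7*, which restrains both branches, read 0.96, 0.35, 0.50 and 0.19 against 0.64, 0.35, -0.06 and 0.93, with the groups mixed. Its difference was -0.04 (95% confidence interval -0.61 to 0.54, adjusted p = 0.913), and its sign changed with single arrays.

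The *Id* genes, helix-loop-helix proteins without a DNA-binding domain and textbook targets of BMP Smads, showed 3 genes up and 1 down. *Id1*, at chr2:152563083-152563142 on mm9, read 0.92, 0.30, 2.29 and 1.22 in untreated cells and 3.81, 3.62, 3.90 and 4.04 after RA. *Id2* read 1.51, 1.29, 2.53 and 2.32 against 4.57, 4.66, 4.94 and 4.72. *Id3* read 1.14, 2.31, 3.16 and 3.00 against 4.36, 4.30, 4.59 and 4.27. In these genes the untreated arrays were scattered, with array 3 the highest each time, and the RA-treated arrays lay close together above them. The SD over 4 untreated arrays was 0.83, 0.61 and 0.92 for *Id1*, *Id2* and *Id3*, and over 4 RA-treated arrays 0.17, 0.16 and 0.15.

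*Id2* rose by 2.81 ± 0.29 (adjusted p = 9.29e-05), *Id1* by 2.66 ± 0.37 (adjusted p = 0.000546) and *Id3* by 1.98 ± 0.40 (adjusted p = 0.00444), which was not called within slide 1 alone. *Id4*, known from neural progenitors, went down from -0.71, -0.50, -0.60 and -0.17 to -1.77, -1.30, -1.62 and -1.87 with no overlap. It fell by 1.15 (SE 0.18, adjusted p = 0.00116), a call held on slide 1 and not on slide 2 alone.

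The promoters of *Id2*, *Id3* and *Id4* are shown because BMP Smads are known to act on GC-rich elements of *Id* genes and because these genes moved in opposite directions. Each is the 250 bases before the RefSeq start on GRCm38.p6, at chr12:25096093-25096342 on the minus strand for *Id2*, chr4:136143572-136143821 on the plus strand for *Id3* and chr13:48260866-48261115 on the plus strand for *Id4*. Capitals mark the word GGCGCC, searched on both strands.
Id2: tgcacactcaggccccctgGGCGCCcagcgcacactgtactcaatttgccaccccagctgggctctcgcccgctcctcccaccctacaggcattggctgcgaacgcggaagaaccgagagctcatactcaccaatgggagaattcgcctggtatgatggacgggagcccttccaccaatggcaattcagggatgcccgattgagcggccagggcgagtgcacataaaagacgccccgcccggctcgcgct
Id3: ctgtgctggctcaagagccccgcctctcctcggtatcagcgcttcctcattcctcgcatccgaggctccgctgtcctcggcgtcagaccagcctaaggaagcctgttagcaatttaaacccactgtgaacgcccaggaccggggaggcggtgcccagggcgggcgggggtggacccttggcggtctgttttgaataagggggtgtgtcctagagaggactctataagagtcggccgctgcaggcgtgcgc
Id4: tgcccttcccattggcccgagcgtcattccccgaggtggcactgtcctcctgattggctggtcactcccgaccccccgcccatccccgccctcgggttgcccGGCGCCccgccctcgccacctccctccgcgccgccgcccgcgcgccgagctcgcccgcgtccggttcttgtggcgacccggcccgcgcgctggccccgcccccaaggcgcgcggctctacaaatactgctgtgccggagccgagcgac

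GGCGCC stood in the windows of *Id2*, which rose, and of *Id4*, which fell, and not in that of *Id3*. Of the 64 members 45 had a promoter entry in the RefSeq table, 9 of them (20.0%) with GGCGCC, against 9.54% of all 27025 promoters. Among these members the word was in 6 of 23 called higher and in 1 of 10 called lower. CGCG, which can share its end bases with GGCGCC and is not set in capitals, was in 57.8% of members and 34.0% of all promoters. The median G and C content was 64.0% for the members and 52.0% for all promoters. GTCTAGAC, a Smad3 and Smad4 word, and the spaced direct repeat of retinoic acid receptors were found in 0 of the 45 members and in 0.174% and 0.0074% of all promoters. A word found or not found in such a window is a description of its letters and says nothing of a factor that may bind there.

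Other genes of the pathway, from separate lists, are given against the 13.9% of all genes called higher and the 22.1% called lower. Of 34 secreted modulators and co-receptors on the array 17 were called higher (50%) and 5 lower (14.7%). *Dcn*, the matrix proteoglycan decorin that binds TGF-beta, rose by 8.07 ± 0.32, *Fbn2*, a microfibril protein, by 4.77 ± 0.30, *Pcsk5*, a proprotein convertase well above background on 2 of 4 untreated arrays, by 4.04 ± 0.16 and *Nbl1*, a BMP antagonist, by 3.55 ± 0.21. Of the 5 called lower, *Amhr2*, a receptor for anti-Müllerian hormone, fell by 2.00, *Hfe2*, a BMP co-receptor well above background on some arrays only, fell by 1.96, *Pcsk6*, a proprotein convertase, fell by 1.50 and *Eng*, the endothelial co-receptor endoglin, fell by 1.41, while *Fstl5*, a follistatin-like protein, was dim after RA and is given no size. Of 26 intracellular regulators 8 rose (30.8%) and 7 fell (26.9%). *Zeb2*, a Smad-binding repressor, rose by 3.47 ± 0.28, *Zfp423*, a BMP Smad cofactor, by 1.78 ± 0.19 and *Zfyve16*, an endosomal Smad anchor, by 1.76 ± 0.20, whereas *Foxh1*, the Smad2 partner in Nodal signalling, fell by 2.75.

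*Nodal*, *Tdgf1* and both *Lefty* genes fell. *Nodal* fell by 4.34, *Tdgf1*, encoding the co-receptor Cripto, by 6.30, and the feedback inhibitors *Lefty1* and *Lefty2* by 5.72 and 4.27. All 4 were called, whereas *Dand5*, a further Nodal inhibitor, was at 0.28 and was not. Of 20 genes widely used as readouts of TGF-beta or BMP signalling, 9 rose (45.0%) and 3 fell (15.0%), and the list includes *Smad6* and *Smad7* given above. *Tagln*, encoding the smooth muscle protein transgelin, rose by 6.87 ± 0.20 and also stands in the fibroblast and smooth muscle list. *Gata3* rose by 4.33 ± 0.34, *Atoh8*, well above background on 1 of 4 untreated arrays, by 4.06 ± 0.35 and *Cdkn2b*, a cyclin-dependent kinase inhibitor, by 3.99 ± 0.38, and *Hey1*, *Tbx3* and *Skil* fell by 1.08, 1.04 and 0.61. The medians were 1.05 for the secreted modulators, -0.04 for the intracellular regulators and 0.53 for the readout genes, beside -0.28 over all probes.

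The size of a change in a dim gene rested on the background correction, while its direction did not for any called member. With normexp, which adds an offset to every spot and so compresses low values, *Gdf6* came to 0.99, *Smad9* to 0.90, *Bmp5* to 0.83 and *Inhbc* to -1.33 on the log2 scale, each still called. *Gdf3*, bright in untreated cells, stayed at -5.65. Over quantile normalization, both normexp settings and the authors' values, 40 of the 48 calls held throughout, 32 of them higher and 8 lower.

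**Figure D4:**
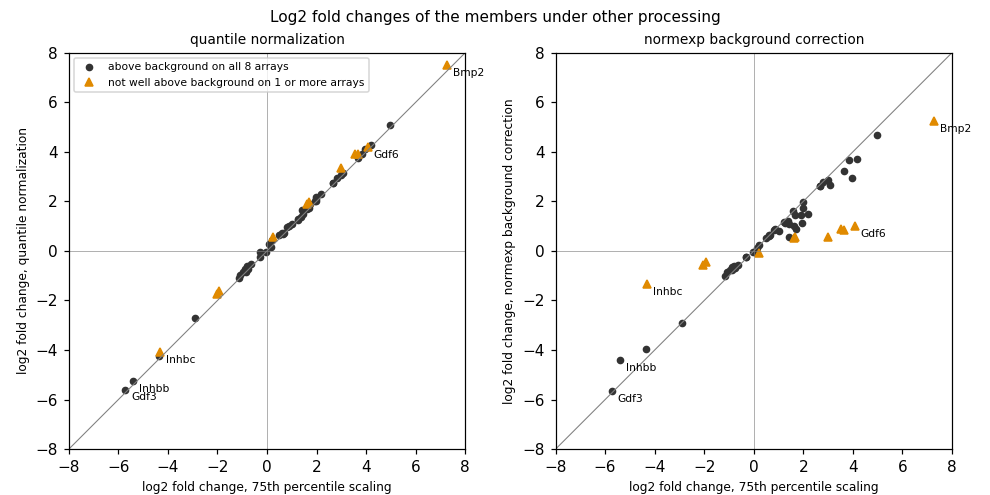
Log2 fold change (RA-treated minus untreated) of each member under quantile normalization (left) and normexp background correction (right) against the value from the 75th percentile scaling, with circles for members well above background on all 8 arrays, triangles for members that were not on 1 or more arrays, a diagonal for equal values, and the members below background on all arrays left out. Points follow the diagonal on the left, and on the right *Gdf6* and *Inhbc* move from 4.07 and -4.31 to 0.99 and -1.33.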

How the data were processed

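Total RNA of 4 untreated and 4 RA-treated E14 samples was measured on 8 arrays. The authors deposited, for each array, the Agilent Feature Extraction (version 10.7.3.1) intensity of each spot, corrected for background and detrended within the array but not normalized between arrays, with raw intensities, flags and gene names of the array's design, whose positions are on mm9. The authors also deposited log2 values that they had processed further, whose background correction and normalization are not given in the sources used here. The columns of that table ranked the spots as normexp-corrected values do (Spearman at least 0.999987), each with a median of 6.89, on a log2 scale.

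In R 4.3.3 with limma 3.58.1, log2 intensities had the array's own 75th percentile subtracted, taken over 59305 spots, leaving out 3671 control spots and 124 to 145 outlier spots per array. Spots of a probe were averaged to 55681 probes, of which 87 belong to the members, and the probe with the highest mean represents a gene. lmFit and eBayes compared the groups, with Benjamini-Hochberg adjustment over all probes and the study's thresholds of 0.05 and 1.5-fold. A probe well above background on no array of a group and on all arrays of the other gives a bound, the mean of the brighter group against the higher of the dimmest signal well above background and the probe's own signal on each array of the dim group. The fit was tested on simulated data.

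Deviations from the group means correlated between same-numbered arrays at r of 0.186, 0.189, 0.104 and 0.151 for numbers 1 to 4 over 27491 probes. Arrays numbered 1 and 2 shared a slide across the groups, and those numbered 3 and 4 did not. The labels do not state pairs, and whether the numbers mark pairs was not tested. The number was used as a block in an alternative only. Per-array values are given for up to 4 called members per role with the largest change, for members whose call an alternative removed and for a short fixed list with *Bmp4*, the Smads and the *Id* genes. Promoters came from RefSeq (GRCm38.p6). The members, lists and words were chosen with earlier results of these data known. The ChIP-seq data of the study were not analysed here, and 2 genes of the lists are counted but not reported here. The number of arrays and the signal over background limit the precision.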

Additional observations from a re-analysis of the deposited data

Results flagged for a closer look

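Over 120 sets of 4 arrays (the members that were not below background throughout, in each group), 4 held an array that stood apart from the other 3 by Dixon's test, where chance alone gives about 5%. *Smad2* read 1.08 on untreated array 3, against 0.40 to 0.48 on the others, and its rise was called without that array as well. *Gdf5* read -4.10 on untreated array 2, against -3.40 to -3.34. *Gdf7* read -6.18 on untreated array 2, against -4.54 to -4.26. *Bmp10*, dim after RA, read -6.03 on RA-treated array 3, against -7.97 to -7.73.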

How the results depend on the processing

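With 22 alternatives, none of the 48 called members changed direction, and 25 kept their call in every one. Against 35 members called higher and 13 lower, there were 24 and 8 within slide 1, 25 and 7 within slide 2, and 27 and 8 when tested against 1.5-fold. The members' median of 0.95 became 0.61 with normexp, 0.78 with normexp and quantile normalization, 0.77 in the authors' values, 1.32 with the filter on dim probes and 1.25 with dim members at their bound; the last 2 leave out or move dim genes by construction. Leaving out each array in turn gave 32 to 35 members higher, 10 to 12 lower and medians from 0.92 to 1.00. The fit with the replicate number as a block gave 34 higher and 12 lower, losing *Bmp7* and *Inhbe* and changing no other call. Of members not called, *Gdf5* turned to 0.090 within slide 2, *Chrd* to -0.047 with normexp, *Gdf7* to -0.090 with normexp, -0.38 within slide 1, -0.16 as the mean of its probes and -0.22 without untreated array 2, and *Smad7* to 0.055 within slide 1 and to 0.0026, 0.12 and 0.14 without RA-treated array 2, untreated array 1 or RA-treated array 3 (leaving out single arrays gave -0.22 to 0.42 for *Gdf7* and -0.19 to 0.14 for *Smad7*); the cause was not tested. Signal over background limits the 15 members that were not above it on all arrays.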
